A study of Mus musculus with 4 samples.

Results

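The genes described here encode 9 receptors for hormones and peptides that act on blood vessels and heart: the adrenergic receptors *Adra1a*, *Adra1b*, *Adra1d*, *Adra2a* and *Adrb1*, the endothelin receptors *Ednra* and *Ednrb*, and the angiotensin II receptors *Agtr1a* and *Agtr2*. They are 9 of the 24391 gene symbols in the table of counts, found by symbol, and were chosen by their counts in these libraries and by the difference between *Phf2* KO and WT MEFs seen in them. Their values in that comparison are therefore given as a description, without a test. RNA-seq was performed on primary mouse embryonic fibroblasts (MEFs, cells grown from embryos at E13.5), with 2 WT and 2 *Phf2* KO libraries that the labels number 1 and 2. All 4 libraries are labelled Phf2 flox/flox, ERCre/+, so WT cells carry the floxed alleles and CreERT2, a tamoxifen-dependent Cre recombinase made from the Rosa26 locus. Tamoxifen is named for the *Phf2* KO libraries alone, and the deletion protocol gives 0.5 µM 4-hydroxytamoxifen (4-OHT) for 7 days in 2% charcoal-treated serum, in cells arrested in quiescence after confluence. Phf2 loss, Cre activity and 4-OHT itself cannot be told apart, since the same libraries had all of them. For quiescent MEFs in general the methods name a resting medium of DMEM with 2% FBS, and for the deletion Opti-MEM. Which of them the WT cells had is not stated, nor whether embryos were pooled. The study calls the replicates of a group biological, and they differ in sex by their *Xist* counts, but neither the labels nor the methods say how many embryos each library came from. SDs and p-values therefore measure the spread between these libraries.

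All 9 are receptors with 7 membrane-spanning helices that signal through G proteins. The alpha-1 adrenergic receptors, both endothelin receptors and the type 1 angiotensin receptor act mainly through Gq, which activates phospholipase C beta and releases calcium from internal stores. Adra2a acts through Gi, which inhibits adenylyl cyclase, and Adrb1 through Gs, which stimulates it. Agtr2, the type 2 angiotensin receptor, couples less typically and opposes many actions of the type 1 receptor. In fibroblasts, angiotensin II and endothelin-1 are known as stimuli of contraction, growth and matrix production, and *Agtr2* is abundant in fetal mesenchyme.

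The libraries held between 21094743 and 26094268 counts. Levels are given as CPM, counts relative to the library total after TMM scaling (factors from 0.983 to 1.01). The highest level that a count of 0 allows, that of 3 counts, was 0.116 to 0.145 CPM, which covers counting error only. All 9 receptors passed the filter on low counts, as did 13668 genes in all. *Phf2* itself had 3244 and 3680 counts in the WT libraries, against 1454 and 2158 in the *Phf2* KO libraries, or 57.9% of the WT level. Its log2 fold change was -0.79 (standard error, SE, 0.14). After Benjamini-Hochberg adjustment its p was 0.999 in edgeR's quasi-likelihood test and 0.0032 in DESeq2. Reads from deleted and remaining exons of *Phf2* are summed in these counts. The libraries also differed by number. *Xist*, the RNA that silences an X chromosome in female cells, had 10042 and 8336 counts in the libraries numbered 1 and at most 12 in those numbered 2, so each group held a female and a male library. The summed level of 10 macrophage markers was 3314 CPM in WT replicate 1 and 3785 in *Phf2* KO replicate 1, against 718.5 and 1142 in the libraries numbered 2. For this reason the ratio of *Phf2* KO to WT is also given within each number. The 8 fibroblast markers were abundant in every library, with sums of 59320 and 66290 CPM in WT replicates 1 and 2, against 56180 and 54790 in *Phf2* KO replicates 1 and 2. Both *Phf2* KO sums were below both WT sums. Without overlap, 4 of the 8 markers (*Col1a1*, *Col3a1*, *Dcn* and *Lum*) were lower, beside 18% of all genes that passed the filter. *Lum* had a log2 fold change of -0.75 (SE 0.22, adjusted p = 0.999 by edgeR). The part of these markers in the levels of the receptors was not tested.

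*Adra1b* and *Ednrb* differed most between the groups, in opposite directions, and their promoters are shown because these genes are described in most detail. The sequences are RefSeq's, on GRCm38.p6, and run from 250 bases before to 50 bases after an annotated start, 5′ to 3′ on the gene's strand. Capitals mark the GC box letters GGGCGG, which Sp1-type factors bind, and the AP-1 letters TGACTCA, on either strand. No GC box match overlapped an AP-1 match.
Adra1b, upstream start, chr11:43901188-43901487, reverse strand: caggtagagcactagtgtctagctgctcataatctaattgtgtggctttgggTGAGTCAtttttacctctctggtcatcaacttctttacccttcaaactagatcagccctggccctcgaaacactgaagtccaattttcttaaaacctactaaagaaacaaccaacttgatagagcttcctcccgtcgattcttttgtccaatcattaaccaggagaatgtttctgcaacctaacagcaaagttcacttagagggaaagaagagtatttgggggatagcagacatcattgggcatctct
Adra1b, downstream start, chr11:43836440-43836739, reverse strand: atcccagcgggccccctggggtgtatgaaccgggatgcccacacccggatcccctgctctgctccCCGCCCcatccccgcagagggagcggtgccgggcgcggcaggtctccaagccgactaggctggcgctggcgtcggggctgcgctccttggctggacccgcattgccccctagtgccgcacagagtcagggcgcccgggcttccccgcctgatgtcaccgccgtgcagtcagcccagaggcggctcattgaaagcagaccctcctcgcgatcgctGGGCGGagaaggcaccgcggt
Ednrb, chr14:103843652-103843951, reverse strand: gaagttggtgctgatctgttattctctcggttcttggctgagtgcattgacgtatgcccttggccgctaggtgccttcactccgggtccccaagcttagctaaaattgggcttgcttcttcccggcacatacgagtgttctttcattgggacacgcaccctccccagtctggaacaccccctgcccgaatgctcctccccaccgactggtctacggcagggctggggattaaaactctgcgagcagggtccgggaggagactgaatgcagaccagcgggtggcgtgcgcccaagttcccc
The downstream *Adra1b* start held 28 CpG dinucleotides and 2 GC box matches, and the upstream start 3 CpG and 1 AP-1 match. The *Ednrb* promoter held 15 CpG and neither motif. The median over 32851 promoters of this length was 7 CpG, 35.66% of them held a GC box match and 5.2% an AP-1 match. Of the 9 receptors, 6 had an entry in the promoter table, 7 entries in all. *Adra2a* and *Adrb1* each held 28 CpG and 1 GC box match, while *Ednra* held 8 CpG, *Agtr2* 5, and neither a GC box match. The cyclic AMP response element TGACGTCA was in 0 of the 7 entries and in 1.79% of all promoters. Starts with more CpG than the median thus included those of *Adra1b* (downstream) and *Adrb1*, whose means were higher in *Phf2* KO MEFs, and those of *Adra2a*, *Ednra* and *Ednrb*, whose means were lower.

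Of the alpha-1 receptors, which mediate contraction of smooth muscle by noradrenaline, *Adra1b* was the one whose groups did not overlap. Its position is chromosome 11, 43588108 to 43714712, reverse strand (mm9, as for each gene position given here). Its counts were 328 and 534 in WT replicates 1 and 2, against 803 and 863 in *Phf2* KO replicates 1 and 2. Both *Phf2* KO libraries were therefore above both WT libraries, and they lay closer to each other than the WT libraries did. The level was 17.1 ± 4.93 CPM (SD, n = 2) in WT cells, against 37.3 ± 2.02 (SD, n = 2) in *Phf2* KO cells, or 2.18 times the WT mean, and the log2 fold change was 1.13 (SE 0.22). The log2 ratio was 1.48 between the libraries numbered 1 and 0.79 between those numbered 2. Without WT replicate 1 the fold change was 0.87 on the log2 scale, and without WT replicate 2 it was 1.46. In bulk RNA, more cells that express a gene and more RNA per cell cannot be told apart, and this holds for each receptor.

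*Adra1d* (chromosome 2, 131371586 to 131388021, reverse strand), the subtype known from large arteries, was the most abundant alpha-1 receptor. It had 666 and 1314 counts in the WT libraries, against 907 and 1797 in the *Phf2* KO libraries, so the WT library numbered 2 was above the *Phf2* KO library numbered 1. The level was 39.1 ± 16.3 CPM (SD, n = 2) in WT cells, against 59.3 ± 21.9 (SD, n = 2) in *Phf2* KO cells. Its log2 fold change of 0.60 (SE 0.39) moved between 0.16 without *Phf2* KO replicate 2 and 1.10 without WT replicate 2. Within each number the ratio was close to the same, with log2 values of 0.65 and 0.56. The difference between the replicates, 0.86 in WT and 0.77 in *Phf2* KO on the log2 scale, was larger than either of these. The annotation places 147 bases of the transcript Gm14285 on the opposite strand of *Adra1d* exons.

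*Adra1a* (chromosome 14, 67254088 to 67390005, forward strand), a subtype known from the heart, was near the lower end of what these libraries measure. It had 102 and 17 counts in the WT libraries, against 48 and 22 in the *Phf2* KO libraries. The libraries numbered 1 were higher than those numbered 2 in both groups, as was the sum of the macrophage markers, whose part in this was not tested. The groups overlapped, and the log2 fold change of -0.60 had a standard error of 0.96. It was 1.30 without WT replicate 1 and -1.41 without *Phf2* KO replicate 1, so no direction could be given. The level was 2.44 ± 2.53 CPM (SD, n = 2) in WT cells, against 1.62 ± 0.991 (SD, n = 2) in *Phf2* KO cells, and the SD in WT was larger than the mean.

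*Adra2a* (chromosome 19, 54119672 to 54123472, forward strand), the receptor through which clonidine acts, consists of a single exon in the annotation. It had 134 and 205 counts in the WT libraries, against 90 and 150 in the *Phf2* KO libraries. The *Phf2* KO library was lower within each number, by a log2 ratio of -0.32 in both, but the groups overlapped. The level was 6.73 ± 1.66 CPM (SD, n = 2) in WT cells, against 5.29 ± 1.34 (SD, n = 2) in *Phf2* KO cells. The log2 fold change was -0.35 (SE 0.29), and -0.07 without WT replicate 2. *Adrb1* (chromosome 19, 56796862 to 56799352, forward strand), the main beta receptor of the heart, also has 1 exon. Its counts were 367 and 312 in the WT libraries, against 414 and 344 in the *Phf2* KO libraries, and the log2 ratios were 0.38 and 0.24. The level of 13.6 ± 2.26 CPM (SD, n = 2) in WT cells, against 17.1 ± 4.01 (SD, n = 2) in *Phf2* KO cells overlapped between the groups. The log2 fold change was 0.33 (SE 0.23), and 0.07 without *Phf2* KO replicate 1. For both genes the difference between the groups was smaller than that between the *Phf2* KO replicates, which was 0.48 for *Adra2a* and -0.47 for *Adrb1* (replicate 2 over replicate 1, log2 scale).

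**Figure D1:**
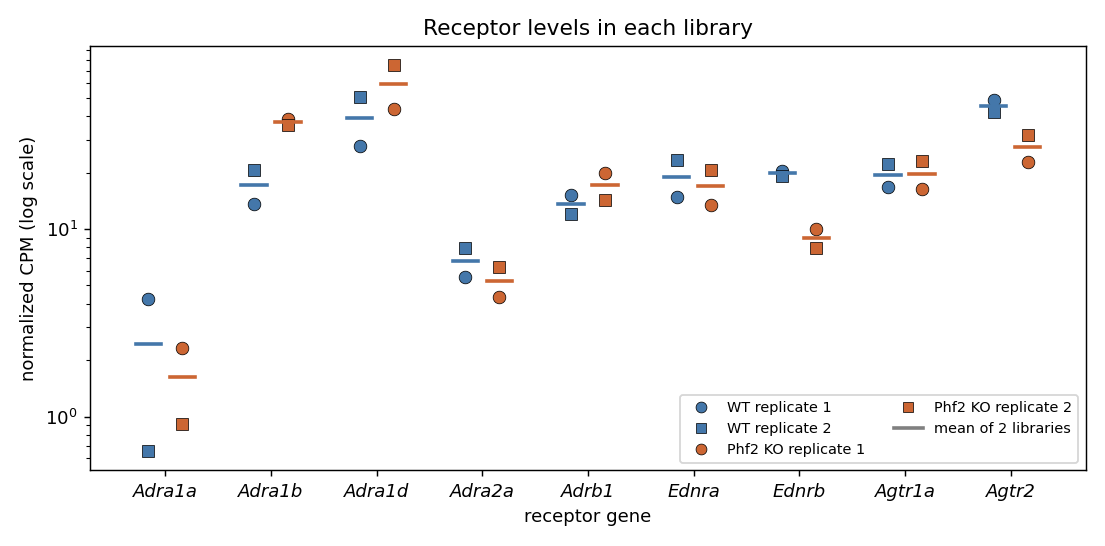
Level of each receptor gene in normalized CPM on a log axis, with 1 point per library (circles for replicate 1, squares for replicate 2) and a line at the mean of the 2 libraries of a group. *Adra1b* is higher in both *Phf2* KO libraries (38.8 and 35.9 CPM) than in both WT libraries (13.6 and 20.6 CPM), *Ednrb* and *Agtr2* are lower in both, and the groups overlap for the other 6.

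*Ednrb*, the endothelin receptor that binds all endothelins and is needed for the development of melanocytes and enteric neurons, had a lower level in *Phf2* KO MEFs than in WT. Its position is chromosome 14, 104213842 to 104243390, reverse strand. Its counts were 493 and 499 in the WT libraries, against 206 and 191 in the *Phf2* KO libraries. The WT libraries were nearly equal, and both *Phf2* KO libraries were below them. The level was 19.8 ± 0.865 CPM (SD, n = 2) in WT cells, against 8.94 ± 1.41 (SD, n = 2) in *Phf2* KO cells, or 45.1% of the WT mean, with a log2 fold change of -1.15 (SE 0.16). The log2 ratios were -1.0 and -1.22, and each library left out in turn gave -1.32 to -0.999.

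Because *Ednrb* is a gene of glial precursors, melanoblasts and endothelial cells, markers of these cells were counted. The 6 Schwann cell and glia markers summed to 53.4 and 46.4 CPM in the WT libraries, against 59.0 and 55.6 in the *Phf2* KO libraries. *Sox10*, a transcription factor of that lineage, had 524 and 457 counts in the WT libraries, against 441 and 443 in the *Phf2* KO libraries, a log2 fold change of 0.01. The 6 melanocyte markers summed to 11.8 and 10.2 CPM in the WT libraries, against 12.9 and 9.86 in the *Phf2* KO libraries. Most of this was *Mlana*, with 207 and 189 counts in the WT libraries, against 193 and 166 in the *Phf2* KO libraries. *Pmel* had 36 to 49 counts and *Kit* 23 to 33, while *Tyr*, *Tyrp1* and *Dct* had 0 to 3 counts in any library. The 8 endothelial markers summed to 48.8 and 17.7 CPM in the WT libraries, against 43.1 and 17.7 in the *Phf2* KO libraries, with 5 of the 8 under 10 counts in every library, *Pecam1* and *Cdh5* among them. The sum was mostly *Vwf*, with 647 and 152 counts in the WT libraries, against 556 and 202 in the *Phf2* KO libraries, and *Kdr*. *Kdr*, a receptor for VEGF, had 441 and 232 counts in the WT libraries, against 258 and 135 in the *Phf2* KO libraries, with log2 ratios of -0.54 and -0.63 within the numbers and overlapping groups. The part of glial, melanocyte and endothelial cells in the level of *Ednrb* was not tested.

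*Ednra* (chromosome 8, 80186930 to 80248363, reverse strand), the receptor that prefers endothelin-1 and drives contraction of smooth muscle, did not share this pattern. It had 356 and 605 counts in the WT libraries, against 279 and 496 in the *Phf2* KO libraries. The libraries numbered 2 were higher in both groups, and the groups overlapped at 19.0 ± 6.04 CPM (SD, n = 2) in WT cells, against 17.0 ± 5.07 (SD, n = 2) in *Phf2* KO cells. The log2 fold change was -0.16 (SE 0.32), 0.21 without WT replicate 2 and 0.12 without *Phf2* KO replicate 1. The 11 pericyte and smooth muscle markers likewise summed to more in the libraries numbered 2, with 1159 and 1881 CPM in the WT libraries, against 1248 and 1681 in the *Phf2* KO libraries. Most of this was *Acta2*, with 15032 and 28893 counts in the WT libraries, against 14379 and 23264 in the *Phf2* KO libraries. *Des* went the other way, with 1279 and 609 counts in the WT libraries, against 664 and 338 in the *Phf2* KO libraries. *Kcnj8* differed little by number, with 44.3 and 46.5 CPM in the WT libraries, against 48.8 and 48.4 in the *Phf2* KO libraries. The part of these markers in the levels of *Ednra*, *Adra1d* and *Agtr1a* was not tested. The annotation gives 91 exonic bases of *Ednra* to 4933431K23Rik on the other strand as well.

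*Agtr2* (chromosome X, 21061670 to 21066290, forward strand), the type 2 angiotensin receptor, also had a lower level in *Phf2* KO MEFs. It had 1180 and 1094 counts in the WT libraries, against 474 and 761 in the *Phf2* KO libraries, so both *Phf2* KO libraries were below both WT libraries. The level was 45.6 ± 4.81 CPM (SD, n = 2) in WT cells, against 27.3 ± 6.21 (SD, n = 2) in *Phf2* KO cells, or 59.9% of the WT mean. The log2 fold change was -0.74 (SE 0.19), and the ratio was larger between the libraries numbered 1 (-1.08) than between those numbered 2 (-0.41). Leaving out single libraries gave -0.997 to -0.53. *Agtr1a* (chromosome 13, 30428310 to 30474736, forward strand), which mediates most known actions of angiotensin II, had 402 and 576 counts in the WT libraries, against 338 and 554 in the *Phf2* KO libraries. The level was 19.4 ± 3.90 CPM (SD, n = 2) in WT cells, against 19.7 ± 4.76 (SD, n = 2) in *Phf2* KO cells, so the groups overlapped almost fully. Its log2 fold change was 0.02 (SE 0.24), from -0.25 without *Phf2* KO replicate 2 to 0.25 without *Phf2* KO replicate 1. Its close copy *Agtr1b* had 2 to 4 counts in any library. Of the distinct 50-base stretches of *Agtr1a* coding transcripts, 1.54% also occur in *Agtr1b*, and reads of 50 nt from these could not be assigned to either. For the other receptors at most 0.248% of such stretches were shared with another gene's coding transcripts.

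**Figure D2:**
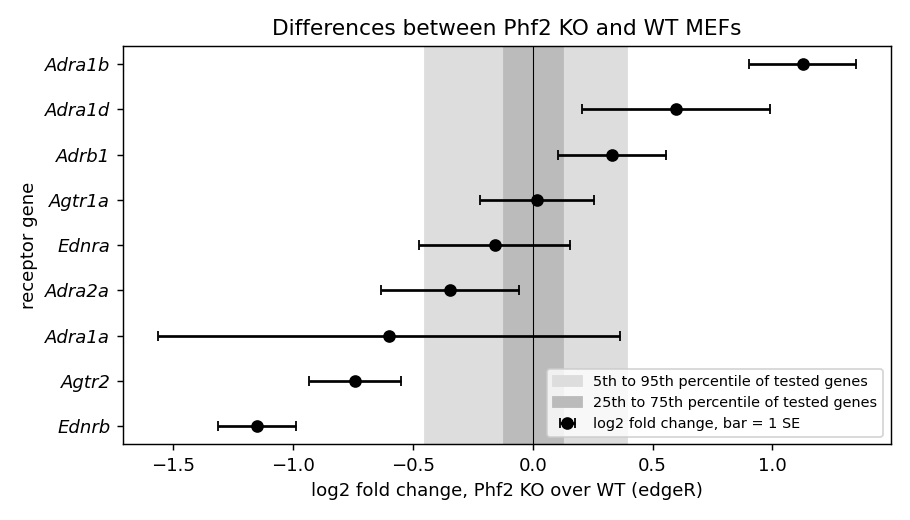
Log2 fold change of *Phf2* KO over WT MEFs from edgeR for each receptor (points, with bars of 1 standard error), over bands that hold the central part of the 13668 genes tested. *Adra1b* at 1.13, *Adra1d* at 0.60, *Adra1a* at -0.60, *Agtr2* at -0.74 and *Ednrb* at -1.15 lie outside the band from the 5th to the 95th percentile (-0.45 to 0.39), while the bars of *Adra1a* and *Adra1d* reach back into it.

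Across the 9 receptors, 1 was higher in both *Phf2* KO libraries than in both WT libraries, beside 15.5% of all genes tested, and 2 were lower, beside 18%. Past 0.5 log2 units, 2 receptors were higher and 3 lower, beside 3.04% and 4.21% of all genes. The median log2 fold change of the receptors was -0.16 and that of all genes 0.01, while the medians of the absolute values were 0.60 and 0.12. Since the receptors were chosen with this comparison known, nothing is read from these counts.

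**Figure D3:**
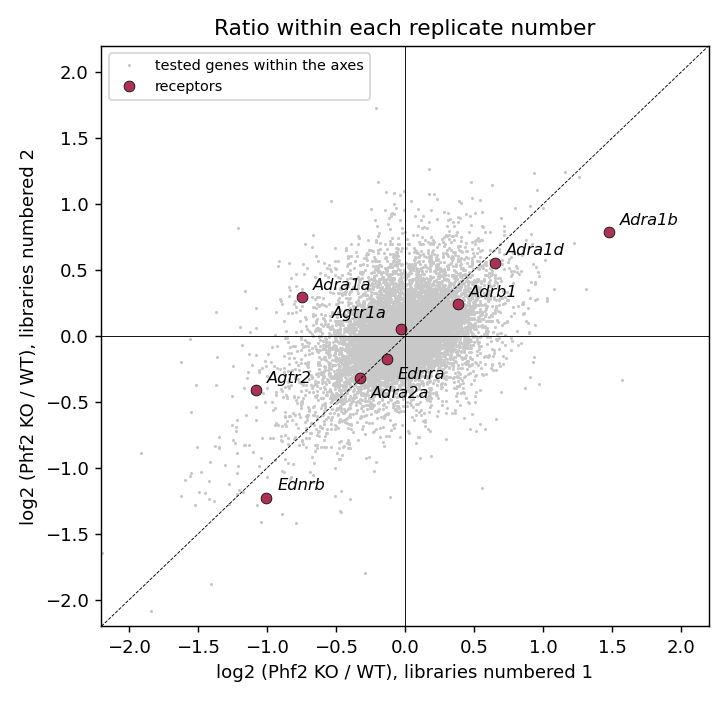
Log2 ratio of *Phf2* KO to WT in the libraries numbered 1 (x axis) and in those numbered 2 (y axis), on CPM with 0.5 added, for the receptors (red) and for tested genes within the axes (grey). *Adra1b*, *Adra1d* and *Adrb1* are higher and *Ednrb*, *Agtr2*, *Adra2a* and *Ednra* lower in both comparisons, and *Adra1a* and *Agtr1a* change sign.

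To compare receptors with each other, CPM were divided by the length of the merged exons in the mm9 annotation, which may not be the annotation that was used for counting. In WT MEFs *Adra1d* had the highest level (20.6 CPM per kb), followed by *Agtr2* (13.7), *Agtr1a* (7.88), *Adrb1* (5.47), *Adra1b* (5.05), *Ednrb* (4.92), *Ednra* (3.48), *Adra2a* (1.77) and *Adra1a* (0.28). The ranges of the WT libraries overlapped between *Adra1d* and *Agtr2*, between *Adrb1* and *Adra1b*, and between *Adra1b* and *Ednrb*, so these neighbours did not differ beyond their spread. In *Phf2* KO MEFs *Adra1d* was again highest (31.2 CPM per kb), and *Adra1b* was next (11.0), above *Agtr2* (8.20), *Agtr1a* (7.98) and *Adrb1* (6.88). *Ednra* (3.11) then stood above *Ednrb* (2.21) by mean with overlapping ranges, and *Adra2a* (1.39) and *Adra1a* (0.19) were last. The ranges of *Agtr2* and *Agtr1a* and those of *Agtr1a* and *Adrb1* overlapped too.

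These values gave the balance of subtypes in each library, which does not depend on how libraries are scaled. *Adra1d* made up 76.33% and 81.22% of the summed alpha-1 level per kb in WT replicates 1 and 2, against 66.26% and 78.59% in *Phf2* KO replicates 1 and 2. The share of *Adra1b* was 21.12% and 18.55% in the WT libraries, against 32.97% and 21.21% in the *Phf2* KO libraries, so the libraries numbered 2 differed by less than those numbered 1. The summed alpha-1 level was 19.0 and 32.8 CPM per kb in the WT libraries, against 34.8 and 50.0 in the *Phf2* KO libraries. The log2 ratio of *Ednra* to *Ednrb* was -0.91 and -0.16 in the WT libraries, against -0.002 and 0.94 in the *Phf2* KO libraries. The log2 ratio of *Agtr1a* to *Agtr2* was -1.12 and -0.50 in the WT libraries, against -0.06 and -0.03 in the *Phf2* KO libraries. In both pairs, the ratio was higher in each *Phf2* KO library than in either WT library.

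**Figure D4:**
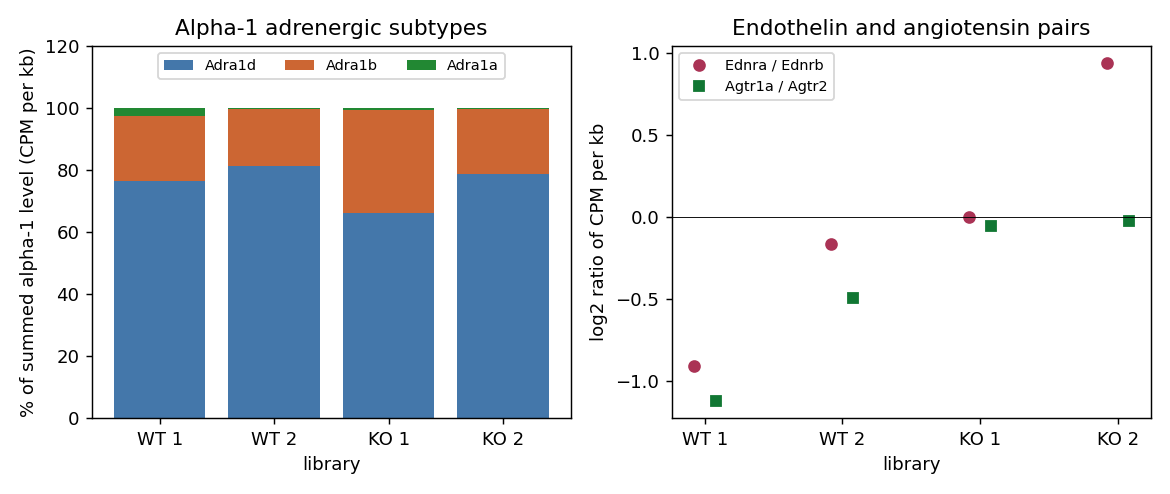
Left, share of each alpha-1 adrenergic subtype in the summed alpha-1 level (CPM per kb of exon) in each library, with *Adra1d* taking 66.26% to 81.22%. Right, log2 ratio of *Ednra* to *Ednrb* and of *Agtr1a* to *Agtr2* in each library, both higher in the 2 *Phf2* KO libraries (KO 1 and KO 2) than in the 2 WT libraries.

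The receptors lie on 7 chromosomes, with *Adra1a* and *Ednrb* on chromosome 14 and *Adra2a* and *Adrb1* on chromosome 19. Of 52 tested neighbours within 500 kb, 5 differed by more than 0.5 log2 units in either direction. Of all genes tested, 3.04% were higher and 4.21% lower by as much. The neighbours *Afap1l2*, *A230072C01Rik*, *1700001G11Rik* and *Scel* were higher, and *Mboat1* was lower. The 5 neighbours of *Adra1b* lay between -0.23 and 0.28. Of the neighbours of *Ednrb*, *Mycbp2* had a log2 fold change of 0.05, and *Scel*, at 0.84 CPM, one of 0.97 (SE 0.54). The 3 neighbours of *Agtr2* lay between 0.04 and 0.61, above *Agtr2* itself. No neighbour was called by edgeR's quasi-likelihood test (adjusted p = 0.999 or above with Benjamini-Hochberg adjustment).

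The genes with the nearest profiles over the 4 libraries were found by the root mean square difference of centred log2 CPM. For *Adra1b* these were *Maob*, *Gpr62* and *Particl* (0.20, 0.20 and 0.22 log2 units), and for *Ednrb* they were *Fam110c*, *Col6a3* and *Dnm1* (0.06, 0.09 and 0.11). For *Agtr2* they were *Katnal2*, *Kcnq5* and *Acacb* (0.02, 0.04 and 0.07), and for *Adra1d* *Bmp4*, *Malat1* and *Ehd3* (0.02, 0.03 and 0.04). *Ednra* lay nearest to *Prdm6*, *Tpm2* and *Mira* (0.01, 0.02 and 0.03), and *Agtr1a* to *Tcea3*, *Gng8* and *Efcab7* (0.01 each). *Adra1a* lay nearest to *Nlrp1b*, *Stap1* and *Olfr111* (0.05, 0.10 and 0.11), *Adra2a* to *Tcaf2*, *Tlcd1* and *Kcnj4* (0.02, 0.03 and 0.04), and *Adrb1* to *Arid3b*, *Vav2* and *Fam20c* (0.02, 0.02 and 0.03). These likenesses rest on 4 libraries, which all genes share.

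The rest of the pathway was followed through 6 lists of ligands, transducers, regulators and targets, of which 118 genes were tested. edgeR's quasi-likelihood test called 0 of the 118 at an adjusted p-value under 0.1, beside 0% of all genes called higher and 0.00732% called lower. At an unadjusted p-value under 0.05, 5 were on the higher side in *Phf2* KO MEFs and 6 on the lower (4.24% and 5.08%), beside 1.54% and 2.67% of all genes tested. The lists, like the receptors, were chosen with earlier results of these data known, so nothing is read from these shares. limma-voom called 0, and DESeq2 called *Junb* higher and *Rgs7* lower (adjusted p = 0.0313 and 0.025 in its Wald test, with Benjamini-Hochberg adjustment), beside 0.0625% and 0.338% of all genes. With the replicate number as a block, edgeR called 17 of the 118 higher and 14 lower, beside 5.77% and 5.2% of all genes. Among them were *Adrb3*, *Edn1*, *Fos*, *Junb*, *Maob*, *Mme*, *Dusp1*, *Trpc6*, *Adcy4*, *Adcy6* and *Rgs7*, described next. The labels do not say that a number marks a pair. Both *Phf2* KO libraries were above both WT libraries for 15.3% of the 118 genes and below them for 15.3%, near the 15.5% and 18% of all genes.

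Of the other receptors of these families, *Adrb3*, the beta receptor of fat cells, had 15 and 38 counts in the WT libraries, against 35 and 54 in the *Phf2* KO libraries, with a log2 fold change of 0.91 (SE 0.48, adjusted p = 0.999 by edgeR). *Adra2b*, *Adra2c*, *Agtr1b* and *Mas1* did not pass the filter and had at most 14 counts in any library.

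Among the genes that encode ligands, that of endothelin-1 had the highest counts. *Edn1* (named after its values were seen, as a ligand of *Ednra* and *Ednrb*) had 299 and 376 counts in the WT libraries, against 405 and 523 in the *Phf2* KO libraries, so its groups did not overlap. Its log2 fold change was 0.62 (SE 0.14, adjusted p = 0.999 by edgeR's quasi-likelihood test), and the log2 ratios were 0.64 and 0.57. *Edn2* and *Edn3* had at most 6 counts. *Agt*, the precursor of angiotensin II, had 49 and 175 counts in the WT libraries, against 53 and 112 in the *Phf2* KO libraries, and *Ren1* and *Ren2*, which encode renin, had 0 counts in each library. The same held for *Th*, *Dbh* and *Pnmt*, enzymes that make catecholamines, where 0 counts allow at most 0.145 CPM.

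Enzymes that process or degrade the ligands were present. *Ece1*, which cuts the endothelin precursor, was the most abundant at 240.4 CPM, with a log2 fold change of -0.06 (SE 0.10). *Mme*, or neprilysin, which degrades endothelin and angiotensin peptides, had 180 and 255 counts in the WT libraries, against 83 and 148 in the *Phf2* KO libraries (log2 fold change -0.76, SE 0.29). *Maob*, a monoamine oxidase, had 90 and 129 counts in the WT libraries, against 155 and 213 in the *Phf2* KO libraries (log2 fold change 0.91, SE 0.22). Each of these 3 genes had an adjusted p of 0.999 by edgeR. Over the 14 tested genes of this list the median was -0.04.

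Heterotrimeric G proteins carry the signal of these receptors to enzymes and channels. All 21 G protein genes listed were tested, with a median log2 fold change of -0.01 and a range of -0.52 to 0.53. *Gnas* and *Gnai2*, the stimulatory and an inhibitory alpha subunit, were the most abundant, with log2 fold changes of 0.09 and 0.03. The ends of the range were *Gnaz* (0.74 CPM) and *Gna15* (2.48 CPM), both at low levels. Of the 35 effectors tested, the median was also -0.01. *Trpc6*, a calcium channel that diacylglycerol opens downstream of Gq, had 65 and 72 counts in the WT libraries, against 15 and 21 in the *Phf2* KO libraries. The groups did not overlap, with a log2 fold change of -1.77 (SE 0.27, unadjusted p = 0.00169, adjusted p = 0.999 by edgeR's quasi-likelihood test). *Adcy4*, an adenylyl cyclase, had 43 and 52 counts in the WT libraries, against 23 and 25 in the *Phf2* KO libraries (-0.82, SE 0.27). The abundant *Adcy6* and *Prkar1a*, a cyclase and a regulatory subunit of protein kinase A, had log2 fold changes of 0.24 (SE 0.22) and 0.05 (SE 0.17).

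Of 26 tested genes that regulate receptors or their signals, the median log2 fold change was -0.001. *Rgs7*, which speeds the inactivation of Gi and Go proteins, had 163 and 134 counts in the WT libraries, against 43 and 48 in the *Phf2* KO libraries. Its log2 fold change was -1.55 (SE 0.23, unadjusted p = 0.00162, adjusted p = 0.999 by edgeR's quasi-likelihood test). *Adrbk1*, the kinase GRK2 that desensitizes adrenergic receptors, was at 115.5 CPM with a log2 fold change of 0.09 (SE 0.17), and *Ppp1r9b* at 244.0 CPM had one of 0.05 (SE 0.10). *Adrbk2* differed by -0.65, with a standard error of 0.71. The 20 tested genes that these pathways are known to induce had a median of 0.12, with 13 positive values. *Fos* had 468 and 423 counts in the WT libraries, against 583 and 612 in the *Phf2* KO libraries, a log2 fold change of 0.59 (SE 0.14). *Junb*, named after its values were seen, had 850 and 944 counts in the WT libraries, against 1156 and 1208 in the *Phf2* KO libraries (0.57, SE 0.10). *Dusp1*, an inducible phosphatase of MAP kinases, had a log2 fold change of 0.74 (SE 0.38), with ratios of 1.01 and 0.57. *Cyr61* and *Ctgf*, the most abundant of the list, had log2 fold changes of 0.18 (SE 0.33) and 0.04 (SE 0.29).

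**Figure D5:**
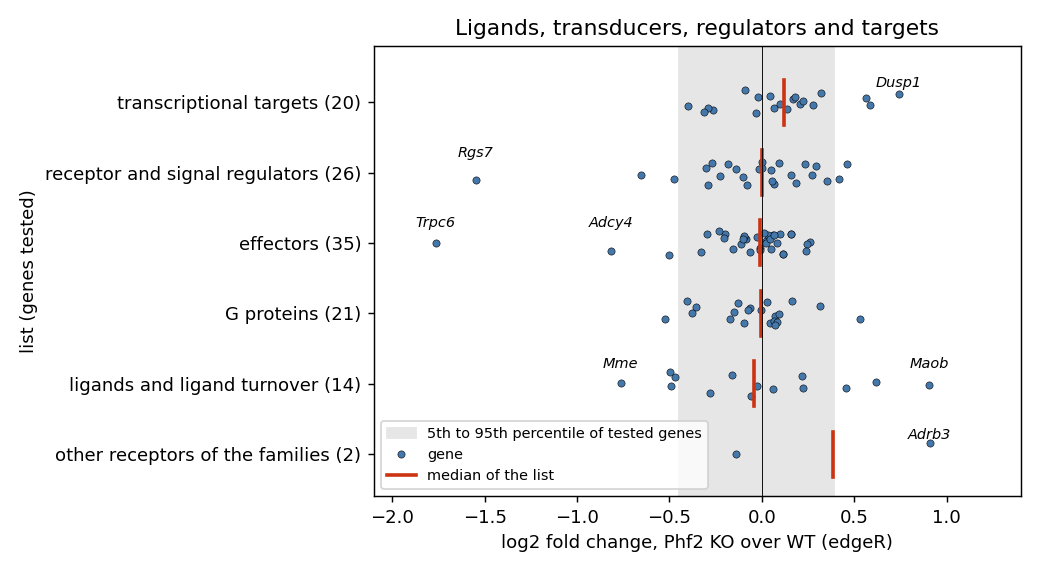
Log2 fold change of *Phf2* KO over WT MEFs for each tested gene of the 6 lists (points, with their number in brackets and random vertical scatter), the median of each list (red line) and the 5th to 95th percentile of all tested genes (grey). The medians of the 5 lists with more than 2 tested genes lie between -0.04 and 0.12, and genes beyond 0.7 in either direction, such as *Trpc6* at -1.77 and *Rgs7* at -1.55, are named.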

How the data were processed

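RNA-seq of 2 WT and 2 *Phf2* KO libraries of primary MEFs was analysed. The authors used Trim Galore on single reads of 50 nt, filtered out ribosomal RNA by bowtie2, aligned what was left to mm9 with STAR (reverse stranded) and deposited whole-number counts per gene symbol from featureCounts. Tool versions and the annotation release are not given in the sources used here. The authors' table of DESeq2 results (fold changes and p-values) was not used. The tests ran in edgeR 4.0.16 under R 4.3.3 (filterByExpr, TMM, glmQLFit and glmQLFTest on genotype, Benjamini-Hochberg adjustment over 13668 genes, called under 0.1). Standard errors were taken as the log2 fold change over the square root of the quasi-F statistic. The test was tried on simulated data with known changes, which had the same dispersion for all genes and no difference between replicate numbers. That trial therefore does not show how the test performs on these libraries. Ratios within a number used log2(CPM + 0.5). DESeq2 1.42.0, limma 3.58.1, other scalings, filters and thresholds, a replicate block and each library left out were alternatives. Positions came from the GENCODE annotation of NCBIM37 (mm9), and promoters from RefSeq on GRCm38.p6, without conversion of coordinates. The receptors and lists were chosen with earlier results of these data known. From each list, the 2 genes with the largest log2 fold change, the 2 most abundant and any called were named (for each receptor, the 3 genes of nearest profile), and all tested ones of the other receptors, except that some of these results are not reported here. The marker lists (fibroblast, macrophage, endothelial, melanocyte, Schwann cell and glia, pericyte and smooth muscle, cardiomyocyte, neuron, adipocyte) served as checks of other cells. The cardiomyocyte, neuron and adipocyte lists summed to at most 29.7, 28.5 and 14.2 CPM in any library.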

Additional observations from a re-analysis of the deposited data

How the results depend on the processing

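The call rule moved the counts more than the scaling did. Over all genes, DESeq2 called 10 higher and 54 lower, against 0 and 1 by edgeR's quasi-likelihood test, and limma-voom and the thresholds of 0.05 and 0.01 called 0 lower, as did each fit without 1 library (from 0 to 0). In the pathway lists DESeq2 called 1 higher and 1 lower. *Phf2* was called by DESeq2 (log2 fold change -0.78). Under the replicate block edgeR called 789 genes higher, 711 lower, with 17 and 14 of them in the pathway lists, and called *Phf2* (-0.80). This fit has 1 residual degree of freedom, and neither the labels nor the study's methods say that libraries of 1 number are a pair. The differences between replicates in WT and in *Phf2* KO were correlated across genes (Pearson's r = 0.809), and genes are not independent replicates.

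Of 99 alternative values of the receptors' log2 fold changes, 5 changed sign, all without 1 library, for *Adra1a*, *Ednra* and *Agtr1a*, and 4 moved by more than the SD between replicates. Depth limits *Adra1a* most, with 17 to 102 counts. For DESeq2, limma-voom and the block, the cause of the moved counts was not tested.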
